A study of Mus musculus with 9 samples.

Results

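The mitochondrial arm of cell death is controlled by the Bcl2 protein family, of which 10 genes were followed here through 3 subsets of mouse monocytes. They were Bcl2, Bcl2l1, Mcl1, Bcl2a1a, Bcl2a1b, Bcl2a1d, Bcl2l11, Bid, Bax and Bak1, taken by gene symbol from the 46517 genes of the deposited table. All 10 were among the 14059 genes with enough counts to be tested. The cells were primary monocytes of wild-type C57BL/6 mice kept in vitro, in 3 libraries each of patrolling (pMo), intermediate (intMo) and conventional (cMo) monocytes, numbered 0, 1 and 2. The title of the series places the patrolling cells in bone marrow cultures on OP9-DLL1, a stromal line that displays the Notch ligand Delta-like 1, so feeder RNA can be present. No label states the age of the mice, the sorting gates or whether animals were pooled, and nothing states that libraries of 1 subset are separate cultures, so p-values measure only the spread between these libraries.

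Proteins of the family meet on the outer membrane of mitochondria. Bax and Bak (gene Bak1) form the pores that release cytochrome c and commit a cell to death, and the pro-survival proteins Bcl-2, Bcl-xL (gene Bcl2l1), Mcl-1 and A1 (the Bcl2a1 genes) hold them in check. BH3-only proteins such as Bim (gene Bcl2l11) and Bid carry death signals, by binding the pro-survival proteins and by engaging Bax and Bak. Monocytes are short-lived cells whose survival depends on growth factors, Mcl-1 is needed by many myeloid cells, and A1 is a transcriptional target of NF-kB.

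Libraries held 18455116 to 29985684 estimated counts. The design text of the series lists the conventional subset 2 times and no patrolling one, while the labels of 3 libraries name patrolling monocytes. The labels were followed and were checked against marker genes. The summed level of 8 patrolling markers was 9656 to 12189 CPM (estimated counts per 1e6 counts of the library, scaled by TMM) in pMo, 3639 to 4465 CPM in intMo and 1127 to 1411 CPM in cMo. That of 5 conventional markers was 407 to 774 CPM in pMo, 895 to 1996 CPM in intMo and 4177 to 7679 CPM in cMo. Such sums are weighted to genes of high level, such as Nr4a1 at a mean of 4490 CPM in pMo. In the edgeR tests described below, all 8 patrolling markers were called higher in pMo than in cMo. For intMo against cMo 5 were called higher and Spn lower (99.2 against 277 CPM), and Cx3cr1 and Itgal were not called. Markers of other cells were present too. Of 12 stromal genes the sum was 193 to 394 CPM in pMo, 173 to 573 CPM in intMo and 8.75 to 21.4 CPM in cMo, with Dcn at 0 in all 9 libraries and Lum at 0 in cMo. Of 11 granulocyte and progenitor genes, none of them at 0 throughout a subset, the sum was 580 to 2542 CPM in pMo, 487 to 4052 CPM in intMo and 2261 to 12341 CPM in cMo. The cMo value of 12341 CPM was that of library 0. Of 7 lymphoid genes it was 150 to 167 CPM in pMo, 77.4 to 102 CPM in intMo and 189 to 301 CPM in cMo, with Cd3e and Ncr1 at 0 in cMo. Within each subset library 0 stood apart, with log2 CPM correlations of 0.951 to 0.9748 with the others, against 0.986 to 0.990 between libraries 1 and 2. In such bulk samples fewer cells of a type and less RNA per cell cannot be told apart.

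The members ranged from genes that differed strongly between subsets to genes without a called difference. An F test over the 3 subsets in edgeR (quasi-likelihood, Benjamini-Hochberg adjustment over all 14059 genes) called 7 of the 10 members at an adjusted p under 0.05, against 33% of all genes tested. They were Bcl2, Mcl1, the 3 Bcl2a1 copies, Bcl2l11 and Bid. Bcl2l1, Bax and Bak1 were not called (edgeR adjusted p = 0.680, 0.122 and 0.402). For intMo against cMo, 3 members were called higher and 1 lower, where 14% of all genes were called higher and 10.4% lower. For pMo against intMo 4 were called higher and none lower, where 3.29% of all genes were called higher and 1.69% lower. For pMo against cMo 6 were called higher and 1 lower, where 17.2% of all genes were called higher and 15.9% lower. The median log2 fold change over the members was 0.22, 0.38 and 0.90 in these comparisons, in that order, and the median over all genes was -0.01, -0.02 and 0.03. The 3 comparisons share libraries and are not independent of each other. The 3 Bcl2a1 copies, near-identical in sequence, stand as 3 members in these counts and medians, so 1 signal may be counted more than once.

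**Figure D1:**
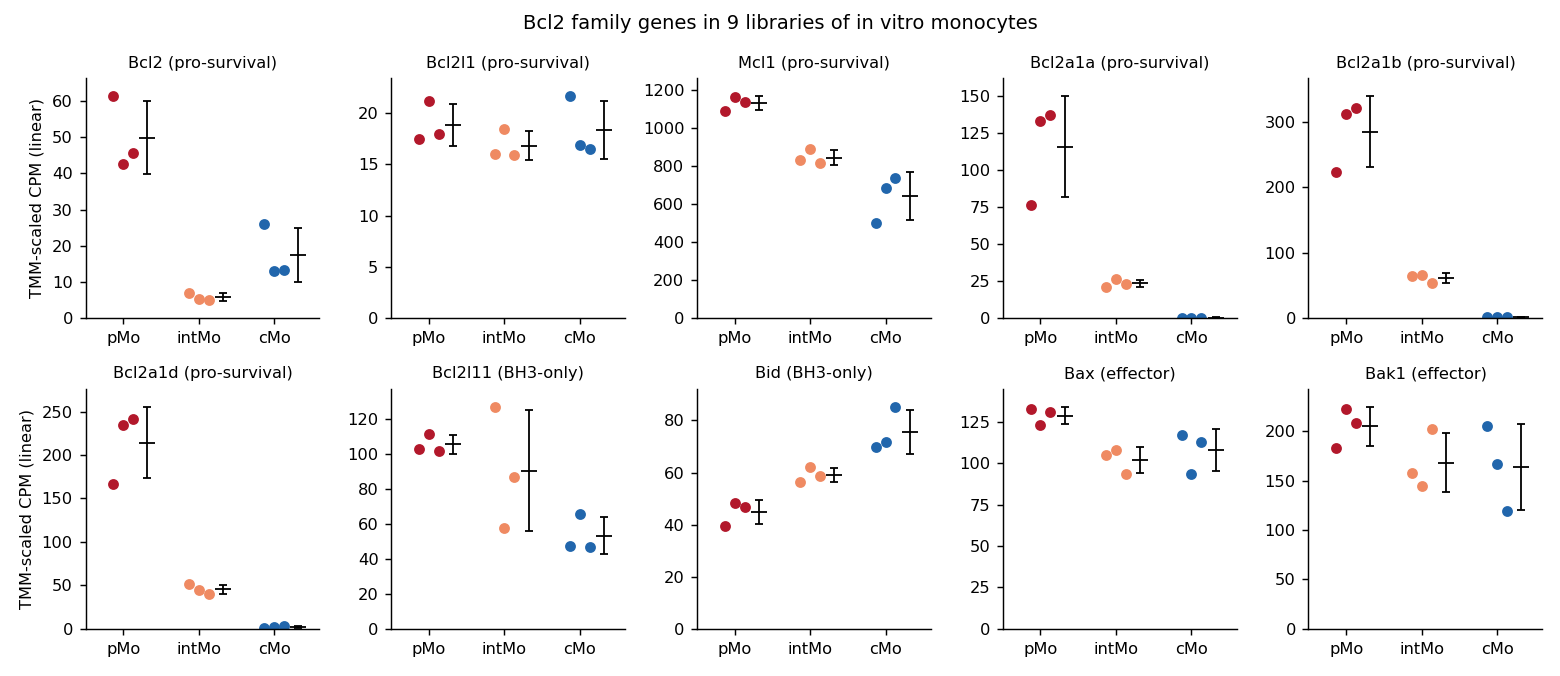
TMM-scaled CPM of the 10 genes on linear axes from 0, with 1 point per library (0, 1 and 2 from left to right) and the mean and SD of 3 libraries beside each subset. The Bcl2a1 copies lie near 0 in cMo and highest in pMo, Bcl2 is lowest in intMo, and Bcl2l1, Bax and Bak1 lie at similar heights in the subsets.

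The Bcl2a1 genes encode A1, a short-lived pro-survival protein of blood cells, and showed the largest changes among the members in both comparisons with cMo. Bcl2a1a (ENSMUSG00000102037.1, chromosome 9, 88956900 to 88962419, plus strand), Bcl2a1b (ENSMUSG00000089929.1, chromosome 9, 89199209 to 89207827, plus strand) and Bcl2a1d (ENSMUSG00000099974.1, chromosome 9, 88723285 to 88731914, minus strand) are copies in 1 cluster, with coordinates of GRCm38 from GENCODE M21. Their annotated transcripts of 819, 817 and 863 bases were identical at 98.2% of aligned bases between Bcl2a1a and Bcl2a1b, 98.8% between Bcl2a1a and Bcl2a1d, and 99.1% between Bcl2a1b and Bcl2a1d. Of the 31-base words in these transcripts, 79.6% of those of Bcl2a1a, 88.8% of Bcl2a1b and 89.1% of Bcl2a1d also occurred in transcripts of another gene, mainly the other copies and the gene model Gm29094. How the authors' estimates split reads between copies is therefore uncertain, and the sum is the firmer value.

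The copies also resemble each other upstream of their starts. A stretch of 70 bases is shown for each, written 5′ to 3′ on the gene's own strand, from RefSeq on GRCm38.p6. Capitals mark TGANTCA, a loosened form of the AP-1 site, and GAGGAAG, a form of the site of Ets factors such as PU.1.
Bcl2a1a: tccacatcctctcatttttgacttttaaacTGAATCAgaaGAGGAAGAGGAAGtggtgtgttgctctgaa
Bcl2a1b: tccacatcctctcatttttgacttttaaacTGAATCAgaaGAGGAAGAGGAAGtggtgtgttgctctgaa
Bcl2a1d: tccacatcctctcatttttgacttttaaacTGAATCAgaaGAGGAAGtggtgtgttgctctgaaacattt
The stretches lie at chr9:88956770-88956839 (plus strand) for Bcl2a1a, chr9:89199079-89199148 (plus strand) for Bcl2a1b and chr9:88731925-88731994 (minus strand) for Bcl2a1d. Those of Bcl2a1a and Bcl2a1b were the same at 70 of 70 positions. GAGGAAG stands 2 times, in overlapping form, in Bcl2a1a and Bcl2a1b and 1 time in Bcl2a1d. All 3 stretches read TGAATCA, whose central letter is not that of the usual AP-1 site. These letters begin 120, 164 and 114 bases before the RefSeq starts of Bcl2a1a, Bcl2a1b and Bcl2a1d.

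Promoter windows of all 10 members, from 250 bases before to 50 after each RefSeq start, were searched on both strands. TGANTCA occurred in 3 members, which were the Bcl2a1 copies, and in 7.81% of 32851 windows of all genes. GAGGAAG occurred in 5 members (the copies, Bcl2 and Bak1) and in 13.6% of windows. An NF-kB motif occurred in Bcl2l1, Mcl1 and Bcl2l11 and in 4.79% of windows. In the copies no TGANTCA match overlapped a GAGGAAG match. These are matches of letters only, and those of the copies lie in shared sequence, so they are not independent.

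Summed over the copies, Bcl2a1 reached 466, 680 and 699 CPM in pMo libraries 0, 1 and 2, against 137, 137 and 117 CPM in intMo and 2.81, 3.76 and 6.23 CPM in cMo. All pMo libraries lay above all intMo libraries, and those above all cMo libraries. The cMo values rest on 78.0, 107 and 173 estimated counts per library. The sum was 4.72-fold higher in pMo than in intMo (log2 2.24 ± 0.27 SE, edgeR adjusted p = 0.00286) and 144-fold higher in pMo than in cMo (log2 7.17 ± 0.35, edgeR adjusted p = 3.88e-06). It was 30.5-fold higher in intMo than in cMo (log2 4.93 ± 0.31, edgeR adjusted p = 2.86e-05). Under all 18, 17 and 17 alternative settings run for these comparisons the call held.

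Each copy followed the same order. Bcl2a1a had 76.5, 134 and 138 CPM in pMo, against 21.02, 26.2 and 23.2 CPM in intMo and 0.324, 0.457 and 0.468 CPM in cMo. Bcl2a1b, the most abundant copy by counts in pMo and intMo, had 223, 312 and 320 CPM in pMo, against 64.7, 65.9 and 53.3 CPM in intMo and 1.12, 1.41 and 2.59 CPM in cMo. Bcl2a1d had 167, 234 and 241 CPM in pMo, against 51.3, 45.2 and 40.3 CPM in intMo and 1.37, 1.93 and 3.13 CPM in cMo. No subsets overlapped for any copy. The log2 changes of pMo against intMo were 2.30, 2.22 and 2.23 for Bcl2a1a, Bcl2a1b and Bcl2a1d, and those of pMo against cMo were 8.10, 7.38 and 6.64. The share of Bcl2a1a in the sum was 16.4% to 19.7% in pMo, 15.4% to 19.8% in intMo and 7.68% to 11.9% in cMo, where few reads stand behind it. Gm29094, a gene model whose exons cover 49.1% of the Bcl2a1b exons on the same strand, had 2.42 to 6.21 CPM in pMo and at most 1.53 CPM in intMo and 0.0703 CPM in cMo. With Gm29094 and the fourth copy Bcl2a1c in the sum, an alternative chosen after the data were seen, the log2 change of pMo against cMo was 7.17.

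Of the 10 stromal genes tested, 8 were called higher in pMo and 8 in intMo, each against cMo. Over all genes those shares were 17.2% and 14%. No stromal gene was called between pMo and intMo, and the summed stromal levels of these subsets overlapped. The part of feeder RNA in the Bcl2a1 differences was not tested in any comparison. Whether the cMo libraries had the same contact with the feeder was not tested either. For all members, a difference of subset and a difference of culture therefore cannot be told apart in comparisons with cMo. The 3 genes whose pattern over 9 libraries was most like the Bcl2a1 sum were found by the root mean square difference of gene-centred log2 CPM, among the 7273 genes that averaged 20 CPM or more. They were Traf1, an adaptor of TNF receptors (difference 0.69, with means of 136 CPM in pMo, 24.6 in intMo and 2.03 in cMo), Cd300e, a myeloid surface receptor (0.71), and Cd22, a sialic acid-binding receptor (0.73).

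Bcl2 itself behaved differently, with its lowest level in the intermediate subset. The gene (ENSMUSG00000057329.7, chromosome 1, 106538178 to 106714274, minus strand) encodes the founding pro-survival protein of the family. It had 61.3, 42.6 and 45.6 CPM in pMo, against 6.97, 5.35 and 5.04 CPM in intMo and 26.1, 13.01 and 13.3 CPM in cMo. The subsets did not overlap. Bcl2 was 8.64-fold higher in pMo than in intMo (log2 3.11 ± 0.31, edgeR adjusted p = 0.00101) and 2.85-fold higher in pMo than in cMo (log2 1.51 ± 0.29, edgeR adjusted p = 0.00423). It fell to 5.79 ± 1.04 CPM in intMo, against 17.5 ± 7.50 CPM in cMo (SD, n = 3 libraries), a log2 change of -1.60 ± 0.30 (edgeR adjusted p = 0.00551).

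Bcl2 was highest in library 0 of each subset. On the log2 scale library 0 exceeded the mean of libraries 1 and 2 by 0.47 in pMo, 0.42 in intMo and 0.99 in cMo. The summed granulocyte and progenitor markers were also highest in library 0 of cMo, but lowest in library 0 of intMo (487 CPM) and pMo (580 CPM). Their part in the Bcl2 level was not tested. Without cMo 0 the change of intMo against cMo was -1.19 and that of pMo against cMo 1.92, and both stayed called. The antisense gene D630008O14Rik, whose exons cover 6.09% of the Bcl2 exons, had 0 counts in all libraries. The closest patterns to that of Bcl2 belonged to Itgb3, the integrin beta 3 subunit (difference 0.46, with means of 63.0 CPM in pMo, 6.57 in intMo and 12.5 in cMo), Spn, the sialoglycoprotein CD43 (0.52), and Arhgef10l, a guanine nucleotide exchange factor (0.56).

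Mcl1 (ENSMUSG00000038612.15, chromosome 3, 95658788 to 95663176, plus strand), which encodes an unstable pro-survival protein, had more counts than any other member in each subset. It had 1088, 1163 and 1132 CPM in pMo, against 830, 887 and 813 CPM in intMo and 497, 686 and 735 CPM in cMo. The subsets did not overlap, and cMo library 0 was lowest. Mcl1 was 1.76-fold higher in pMo than in cMo (log2 0.82 ± 0.15, edgeR adjusted p = 0.00362). The step of intMo against cMo (log2 0.40 ± 0.15, edgeR adjusted p = 0.0856) was not called. That of pMo against intMo was not called either (log2 0.42 ± 0.15, edgeR adjusted p = 0.171, and 0.157 with the library number as a replicate block). Under 4 alternatives Mcl1 was called higher in pMo than in intMo. These were a fit of pMo and intMo alone (edgeR adjusted p = 0.0495), the same with the block, chosen after the data were seen (0.0209), libraries 1 and 2 alone (0.0309) and all libraries but cMo 0 (0.0374).

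Bcl2l1 (ENSMUSG00000007659.17, chromosome 2, 152780668 to 152831728, minus strand) encodes Bcl-xL, the pro-survival protein best known from red cell precursors and platelets. It had 17.4, 21.2 and 17.9 CPM in pMo, against 16.0, 18.4 and 15.9 CPM in intMo and 21.6, 16.8 and 16.5 CPM in cMo. All 3 subsets overlapped. The log2 change of pMo against cMo was 0.04, with a 95% interval from -0.32 to 0.40, and that of pMo against intMo was 0.17, from -0.20 to 0.53. The change of intMo against cMo was -0.13, from -0.49 to 0.24. None was called.

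**Figure D2:**
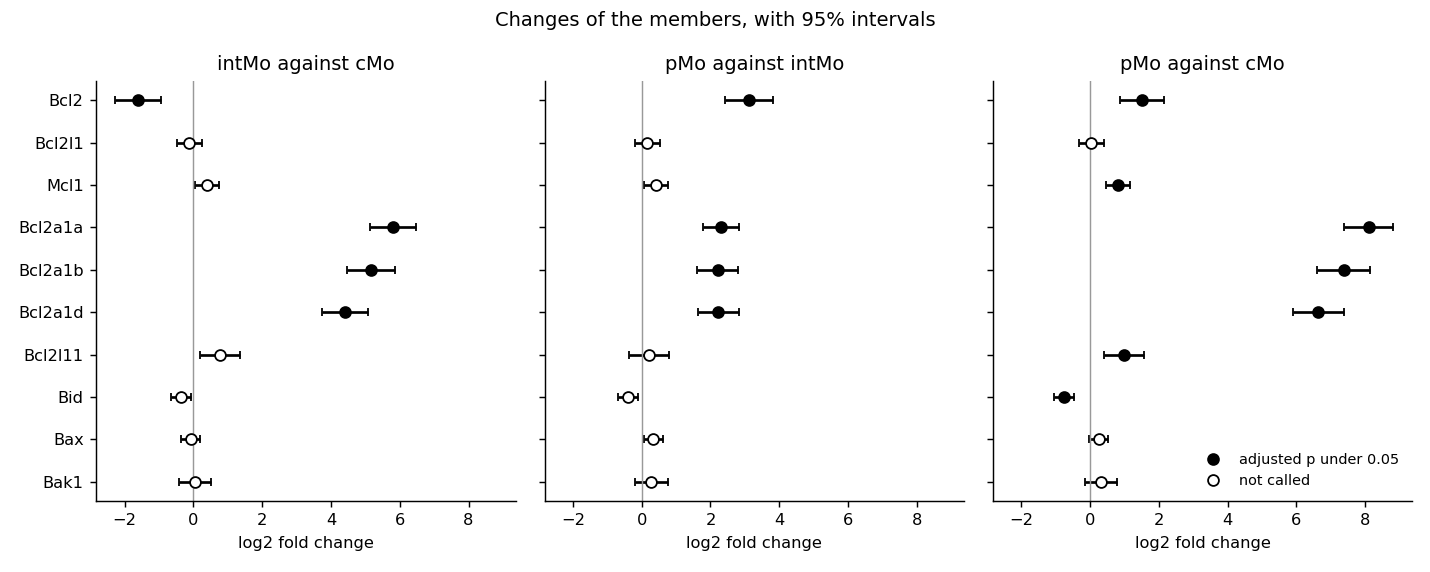
Log2 fold changes of the 10 genes in the 3 comparisons, with 95% intervals from the edgeR fit and filled points for an adjusted p under 0.05. The Bcl2a1 copies range from 2.22 to 8.10, Bcl2 is the gene called lower in intMo against cMo, and Bid is the gene called lower in pMo against cMo.

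The BH3-only genes among the members differed in opposite directions between pMo and cMo. Bcl2l11 (ENSMUSG00000027381.15, chromosome 2, 128126038 to 128162547, plus strand) encodes Bim, a killer of unneeded immune cells. It had 103, 112 and 102 CPM in pMo, against 127, 57.8 and 86.7 CPM in intMo and 47.3, 65.6 and 47.0 CPM in cMo. All pMo libraries lay above all cMo libraries, and intMo spread across both. Bcl2l11 was 1.98-fold higher in pMo than in cMo (log2 0.98 ± 0.26, edgeR adjusted p = 0.0176). That call ended without cMo 0, cMo 2 or pMo 1, at an edgeR adjusted p of 0.0562 to 0.0603. The change of intMo against cMo, with a log2 of 0.76 ± 0.26, was not called in edgeR (adjusted p = 0.0593), but was in DESeq2 (adjusted p = 0.0309) and without intMo 1 (edgeR adjusted p = 0.0130). With libraries 1 and 2 alone it was 0.36. IntMo library 0, the highest for Bcl2l11, also had the highest summed stromal level, and the part of feeder RNA was not tested. The nearest patterns to that of Bcl2l11 were those of Man2a1, a Golgi mannosidase (difference 0.16), Stk40, a protein kinase (0.16), and Synj1, a phosphoinositide phosphatase (0.17).

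Bid (ENSMUSG00000004446.11, chromosome 6, 120891930 to 120916853, minus strand) links death receptors and caspase 8 to the mitochondria. It had 39.4, 48.2 and 46.9 CPM in pMo, against 56.5, 62.0 and 58.6 CPM in intMo and 69.9, 71.7 and 85.2 CPM in cMo. The subsets did not overlap. Bid fell by 0.75 ± 0.13 on the log2 scale in pMo against cMo (edgeR adjusted p = 0.00256). The single steps were smaller and not called, at -0.36 ± 0.13 for intMo against cMo (edgeR adjusted p = 0.0750) and -0.40 ± 0.13 for pMo against intMo (edgeR adjusted p = 0.131, and 0.106 with the replicate block). DESeq2 called the first of these (adjusted p = 0.0420), as did edgeR on libraries 1 and 2 alone (adjusted p = 0.0443). The blocked fit of pMo and intMo alone called the second (edgeR adjusted p = 0.0227). Exons of Bcl2l13 on the opposite strand cover 17.7% of the Bid exons, and no label states whether the authors' counting used strand, so reads of both genes may be mixed. Bcl2l13 had 60.0 CPM in pMo, 48.2 CPM in intMo and 75.0 CPM in cMo on average.

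The pore-forming genes were steady by comparison. Bax (ENSMUSG00000003873.10, chromosome 7, 45461697 to 45466898, minus strand) had 133, 123 and 131 CPM in pMo, against 105, 108 and 93.2 CPM in intMo and 117, 93.4 and 112 CPM in cMo. The pMo libraries lay above those of both other subsets, by log2 0.33 against intMo (95% interval 0.05 to 0.61) and 0.26 against cMo (-0.02 to 0.54), without a call (edgeR adjusted p = 0.184 and 0.145). The change of intMo against cMo was -0.08 (-0.36 to 0.20). Bak1 (ENSMUSG00000057789.12, chromosome 17, 27019810 to 27029009, minus strand) had 183, 222 and 209 CPM in pMo, against 158, 145 and 202 CPM in intMo and 206, 166 and 119 CPM in cMo. Its subsets overlapped, and its log2 change was 0.32 for pMo against cMo (-0.14 to 0.79), 0.28 for pMo against intMo (-0.18 to 0.75) and 0.04 for intMo against cMo (-0.43 to 0.51). Ggnbp1, whose exons overlap those of Bak1 on the opposite strand, had 4.71 to 10.1 CPM over the 9 libraries.

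For intMo against cMo, pMo against intMo and pMo against cMo, 6, 7 and 8 of the 10 members had levels that did not overlap between the subsets. Over all genes tested these shares were 41.3%, 27.7% and 49.5%. The 3 Bcl2a1 copies were among the members in each count and may stand for a shared signal.

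Levels of different genes were compared per length, as estimated counts per kilobase of exon scaled to 1e6 over all genes in a library. In pMo the Bcl2a1 copies together stood at 2147 ± 399 (SD, n = 3) and Mcl1 at 962 ± 1.47. Bak1 (248 ± 16.0) and Bax (239 ± 17.1) followed and did not differ beyond their spread. Bcl2l11 (38.3 ± 1.37) and Bid (36.8 ± 2.79) came next, again within their spread, and then Bcl2 (16.0 ± 3.77) and Bcl2l1 (11.97 ± 0.968), whose SDs met.

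In intMo the order began with Mcl1 (736 ± 19.1) and the Bcl2a1 copies (467 ± 37.9). Bak1 (209 ± 40.3) and Bax (193 ± 12.3) were within their spread, and Bid (49.6 ± 1.47) and Bcl2l11 (33.8 ± 13.4) lay above Bcl2l1 (10.9 ± 0.683) and Bcl2 (1.89 ± 0.355). In cMo Mcl1 stood at 549 ± 109, while the Bcl2a1 copies, at 14.8 ± 5.36, were close to Bcl2l11 (19.7 ± 5.17) and Bcl2l1 (11.7 ± 1.94). Bak1 (201 ± 58.4) and Bax (200.1 ± 16.1) could not be separated there, Bid was at 62.3 ± 4.36 and Bcl2 at 5.60 ± 2.39. These levels depend on the length taken for each gene. With the mean length of annotated coding transcripts, Bax was above Bak1 in each subset, at 304 ± 19.0 against 196 ± 14.5 in pMo. With that length the Bcl2a1 copies (253 ± 20.1) and Bax (247 ± 15.4) were within their spread in intMo. In cMo the copies then stood at 8.03 ± 3.01, below Bcl2l1 (19.0 ± 2.94) and Bcl2l11 (30.5 ± 7.92).

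The 4 pro-survival entries among the members were then added per length, with the Bcl2a1 copies taken as 1 entry. Their sum was 2687, 3302 and 3422 in pMo libraries 0, 1 and 2, against 1240, 1251 and 1155 in intMo and 457, 659 and 627 in cMo. Mcl1 made up 31.03% ± 4.20 of it in pMo, 60.6% ± 1.62 in intMo and 94.3% ± 1.22 in cMo (SD, n = 3). The Bcl2a1 copies made up 68.1% ± 4.44 in pMo, 38.4% ± 1.63 in intMo and 2.51% ± 0.648 in cMo. Bcl2 held 0.525% in pMo, 0.155% in intMo and 1.05% in cMo, and Bcl2l1 held 0.385%, 0.899% and 2.12% in the same order. In cMo the Bcl2 share was 1.83% in library 0, against 0.676% and 0.637% in libraries 1 and 2. With coding transcript lengths Bcl2l1 held 0.958% in pMo, above Bcl2 at 0.796%. With coding transcript lengths the Bcl2a1 share was 56.9% in pMo, 27.8% in intMo and 1.56% in cMo. These shares leave out Bcl2l2, a pro-survival gene outside the members. Its means were 37.9 CPM in pMo, 36.0 CPM in intMo and 35.5 CPM in cMo. The shares describe transcripts, and protein was not measured.

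**Figure D3:**
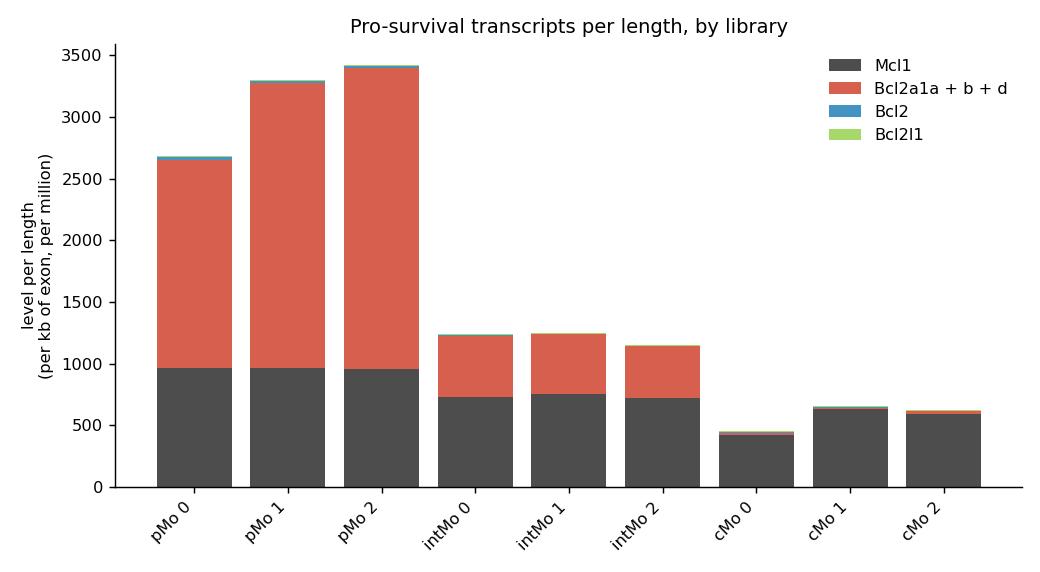
Stacked levels per length of the pro-survival genes among the members in each library, in estimated counts per kilobase of exon scaled to 1e6, on a linear axis from 0. The bars reach 2687 to 3422 in pMo, 1155 to 1251 in intMo and 457 to 659 in cMo, and the Bcl2a1 segment is the larger one in pMo while Mcl1 fills most of the cMo bars.

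Other genes of the Bcl2 family were taken from a list of 14, of which 9 had enough counts to be tested. For pMo against cMo 4 of these were higher and 2 lower. For pMo against intMo 3 were higher and none lower, and for intMo against cMo 2 were higher and 1 lower. In the blocked fit of pMo and intMo alone Bad was also called, as lower. Of the 3, none was called without intMo 1, intMo 2, pMo 0 or pMo 1, and 1 without pMo 2. The median log2 change was 0.19, 0.07 and 0.09 in the order named, against 0.03, -0.02 and -0.01 over all genes. Of all genes tested, 17.2%, 3.29% and 14% were called higher in that order, and 15.9%, 1.69% and 10.4% lower. Bcl2a1c, Bcl2l10, Bok, Bik and Hrk did not pass the filter, and Bcl2l10 had 0 counts in all libraries.

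The tested BH3-only genes of that list were higher in pMo than in cMo, apart from Bad. Pmaip1, which encodes Noxa, the partner that drives Mcl-1 to degradation, had 331, 420 and 422 CPM in pMo, against 171, 265 and 226 CPM in intMo and 72.3, 86.2 and 103 CPM in cMo. It was higher in pMo than in cMo (log2 2.16 ± 0.20, edgeR adjusted p = 0.000127) and in intMo than in cMo (log2 1.34 ± 0.20, edgeR adjusted p = 0.00183). Its step of pMo against intMo (log2 0.82 ± 0.20, edgeR adjusted p = 0.0463) was not called when cMo 1, any intMo library or any pMo library was left out (up to 0.182), nor with a filter of 1 CPM (0.0545). Bmf, which responds to loss of cell attachment, had 199.5 ± 37.5 CPM in pMo, against 96.1 ± 17.6 CPM in intMo and 82.6 ± 14.9 CPM in cMo (SD, n = 3). Bbc3, which encodes Puma, a p53 target, had 28.1 ± 2.42 CPM in pMo, against 15.5 ± 1.40 CPM in intMo and 14.6 ± 2.84 CPM in cMo. Both were higher in pMo than in cMo (log2 1.27 and 0.94, edgeR adjusted p = 0.00168 and 0.0035).

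Against intMo, Bmf (log2 1.05, edgeR adjusted p = 0.0183) and Bbc3 (log2 0.85, edgeR adjusted p = 0.0241) were also higher in pMo. The Bmf call ended without intMo 1, intMo 2, pMo 0 or pMo 1 (edgeR adjusted p up to 0.0687), and the Bbc3 call without those or pMo 2 (up to 0.108). Bad, which growth factor signals hold inactive, had 24.6 ± 4.22 CPM in pMo, against 32.7 ± 1.36 CPM in intMo and 40.7 ± 2.92 CPM in cMo, and was lower in pMo than in cMo (log2 -0.73 ± 0.15, edgeR adjusted p = 0.00553). Its change of pMo against intMo was -0.41 (edgeR adjusted p = 0.168), and -0.44 in the blocked fit of these subsets alone (edgeR adjusted p = 0.0470).

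Of the remaining family genes, Bcl2l2, which encodes the pro-survival protein Bcl-w, was not called and had 37.9 ± 2.98 CPM in pMo, against 36.0 ± 7.38 CPM in intMo and 35.5 ± 3.84 CPM in cMo. Bcl2l12 had 15.7 ± 1.34 CPM in pMo, against 17.8 ± 0.473 CPM in intMo and 22.1 ± 2.62 CPM in cMo, and was lower in pMo than in cMo (log2 -0.49, edgeR adjusted p = 0.0260), a call that ended without cMo 0, cMo 2, pMo 1 or pMo 2 (up to 0.102). Bcl2l13, a receptor for the removal of mitochondria, was lower in intMo than in cMo, at 48.2 ± 6.04 CPM in intMo and 75.0 ± 15.2 CPM in cMo (log2 -0.64, edgeR adjusted p = 0.0215), and lost that call without intMo 0 or intMo 1, with libraries 1 and 2 alone, or with only these subsets in the fit (up to 0.0711). Bcl2l15 was near the floor of detection, with 1.23 CPM in pMo and 1.39 CPM in intMo, against 0.273 CPM in cMo, and was higher in both than in cMo (log2 2.14 and 2.33, edgeR adjusted p = 0.00703 and 0.00708). Bcl2l14 was not called, at 1.29 CPM in pMo, 1.63 CPM in intMo and 1.13 CPM in cMo.

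**Figure D4:**
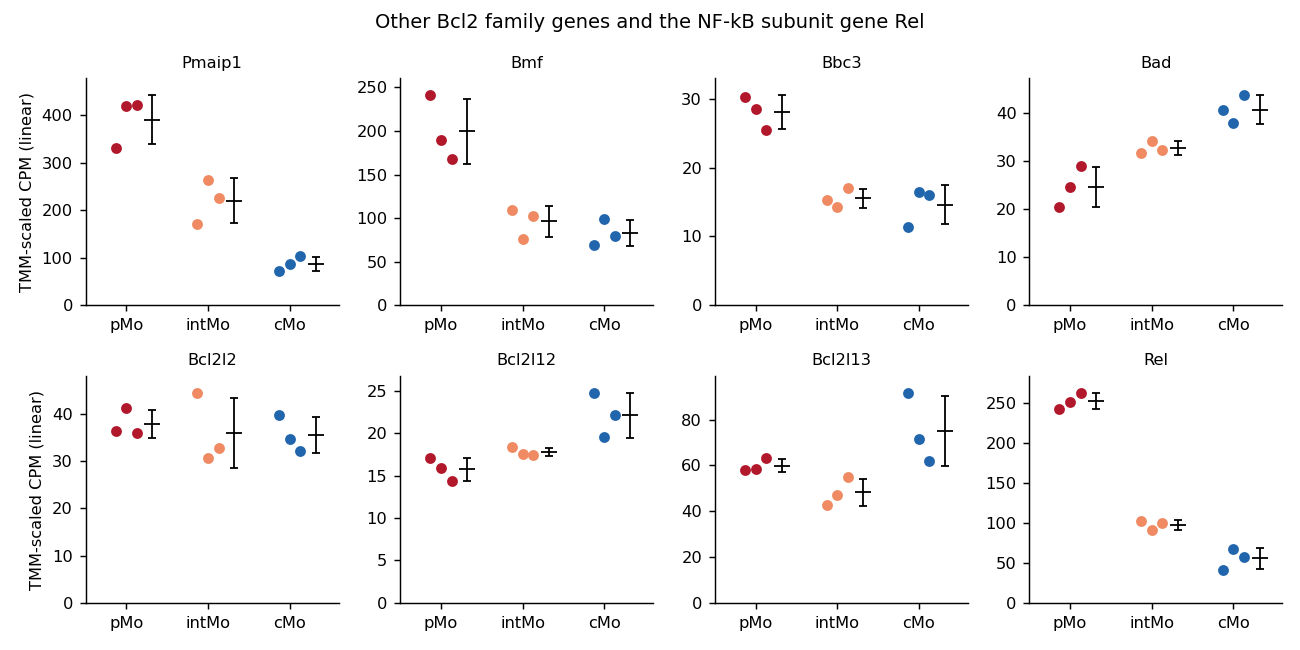
TMM-scaled CPM of 7 other Bcl2 family genes and of Rel on linear axes from 0, with 1 point per library and the mean and SD of 3 libraries beside each subset. Pmaip1 runs from 331 to 422 CPM in pMo and from 72.3 to 103 CPM in cMo, and Bad is the BH3-only gene whose pMo libraries are lowest.

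Downstream of Bax and Bak, 20 genes of the caspase pathway were tested. For pMo against cMo 4 were higher and 4 lower, for pMo against intMo 2 were higher and none lower, and for intMo against cMo 2 were lower and none higher. Of all genes tested, 17.2%, 3.29% and 14% were called higher in that order, and 15.9%, 1.69% and 10.4% lower. The median log2 changes were -0.27, 0.05 and -0.26, against 0.03, -0.02 and -0.01 over all genes. For pMo against intMo 1 was called without cMo 1, intMo 1, intMo 2 or any pMo library, and for intMo against cMo 1 without intMo 0, intMo 2, pMo 1 or pMo 2. Without pMo 0 or pMo 2 the calls of pMo against cMo came to 5. Htra2, a mitochondrial protease that counters inhibitors of apoptosis, had 153 ± 9.39 CPM in pMo, against 62.6 ± 3.04 CPM in intMo (log2 1.29 ± 0.13, edgeR adjusted p = 0.00119). Birc5, which encodes survivin of dividing cells, had 22.8 ± 8.88 CPM in pMo, against 114 ± 13.7 CPM in cMo (log2 -2.33 ± 0.56, edgeR adjusted p = 0.0127). Cycs, which encodes cytochrome c, had 19.3 ± 5.62 CPM in intMo, against 36.0 ± 8.40 CPM in cMo (log2 -0.90 ± 0.27, edgeR adjusted p = 0.0415), and lost that call without any of 6 libraries, cMo 0, cMo 2, intMo 0, intMo 2, pMo 1 or pMo 2 (up to 0.115), with libraries 1 and 2 alone (0.0656) or with only these subsets in the fit (0.0654).

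In the death receptor arm 11 genes were tested, of which 2 were higher and 1 lower in pMo against cMo, 2 higher in pMo against intMo and 1 lower in intMo against cMo. Of all genes tested, 17.2%, 3.29% and 14% were called higher in that order, and 15.9%, 1.69% and 10.4% lower. The median log2 changes were -0.02, -0.02 and 0.01, against 0.03, -0.02 and -0.01 over all genes. For pMo against intMo 1 was called without cMo 1, intMo 1, intMo 2, pMo 1 or pMo 2. The genes higher in pMo were Tnfrsf1b and Cflar against cMo, and Tnfrsf1b and Fas against intMo. The Cflar call ended without pMo 1 or pMo 2 (edgeR adjusted p up to 0.0639). The list holds regulators beside receptors, so these are not counts of death receptors. Tnfrsf1b, the second receptor for TNF, had 1140.1 ± 111 CPM in pMo, against 412 ± 61.4 CPM in intMo (log2 1.47 ± 0.19, edgeR adjusted p = 0.00324). Fas, the death receptor of that name, had 7.41 ± 2.33 CPM in intMo, against 21.02 ± 6.39 CPM in cMo (log2 -1.50 ± 0.31, edgeR adjusted p = 0.00863). Mlkl, the executor of necroptosis, had 19.9 ± 6.78 CPM in pMo, against 53.0 ± 7.80 CPM in cMo (log2 -1.42 ± 0.31, edgeR adjusted p = 0.00724). Of 6 genes for the turnover of Mcl-1 protein, 1 was called in any comparison. It was Btrc, a ubiquitin ligase subunit, with 22.1 ± 1.09 CPM in pMo, against 14.2 ± 1.16 CPM in cMo (log2 0.64 ± 0.13, edgeR adjusted p = 0.00655).

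Among transcription factors and receptors upstream of the family, 18 of 19 were tested. For pMo against cMo 11 were higher and 1 lower, for pMo against intMo 5 were higher and none lower, and for intMo against cMo 4 were higher and 2 lower. Of all genes tested, 17.2%, 3.29% and 14% were called higher in that order, and 15.9%, 1.69% and 10.4% lower. The median log2 changes were 0.77, 0.47 and 0.28, against 0.03, -0.02 and -0.01 over all genes. Rel, the NF-kB subunit c-Rel that is known to induce Bcl2a1 in lymphocytes, had 243, 250.96 and 263 CPM in pMo, against 102, 90.6 and 99.3 CPM in intMo and 41.0, 68.0 and 57.7 CPM in cMo. It was higher in pMo than in intMo (log2 1.37 ± 0.18, edgeR adjusted p = 0.00324). Without intMo 1 or pMo 1 the calls of pMo against intMo in this list came to 3. Relb and Nfkb1, other NF-kB subunit genes named after their values were seen, were higher in pMo than in cMo (log2 2.44 and 0.83, edgeR adjusted p = 0.000483 and 0.00182). Rela, a further subunit gene of the list, was not called in any comparison, at log2 0.47 for pMo against cMo (edgeR adjusted p = 0.0822).

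Csf1r, which receives the main survival factor of monocytes, had 3628 ± 356 CPM in pMo and 3836 ± 1373 CPM in intMo, against 1347 ± 434 CPM in cMo, and was higher in pMo than in cMo (log2 1.43 ± 0.29, edgeR adjusted p = 0.00587). For Cx3cr1, whose ligand fractalkine supports survival of patrolling monocytes, levels were 378 ± 40.9 CPM in pMo, against 77.3 ± 47.7 CPM in cMo (log2 2.29 ± 0.48, edgeR adjusted p = 0.0064). Levels of Nr4a1, a factor that patrolling monocytes need to form and survive, were 4490 ± 534 CPM in pMo and 1923 ± 386 CPM in intMo, against 232 ± 29.7 CPM in cMo. It was higher in pMo than in cMo (log2 4.28 ± 0.20, edgeR adjusted p = 3.05e-06) and in intMo than in cMo (log2 3.05 ± 0.19, edgeR adjusted p = 2.2e-05).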

How the data were processed

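RNA was sequenced in 9 libraries, 3 for each subset. The deposited table holds estimated counts per Ensembl gene, made by the authors with kallisto 0.46.1 and mm10 per the submitters' processing notes. No source used here states the annotation, how transcripts were summed to genes or the strand option. Counts were rounded, genes kept with filterByExpr, libraries scaled by TMM, and all 9 fitted together by subset in edgeR 4.0.16 (robust quasi-likelihood, R 4.3.3), with calls at a Benjamini-Hochberg adjusted p under 0.05. DESeq2 1.42.0 was an alternative. Of 46517 IDs, 46005 matched GENCODE M21 without their version suffix. Totals of 18455116 to 29985684 limit precision. Intervals and p-values of the fit cover the spread between libraries.

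Named genes outside the members were the 9 tested family genes, the largest called change without overlap per list and comparison, Csf1r, Cx3cr1 and Nr4a1, and for 3 members the 3 genes of nearest pattern with a mean of at least 20 CPM. Relb, Nfkb1 and Rela were added after their values were seen. So were the other called genes of the caspase and death receptor lists, and single marker genes. The members, lists, tests and alternatives were chosen with earlier results of these data known. The steps were tested on simulated data. Deviations of same-numbered libraries correlated at 0.588, 0.300 and 0.274 between pMo and intMo, so by a rule of over 0.1 in every pair numbers were taken to pair these subsets. Differently numbered libraries reached 0.403 (intMo 1 with pMo 2) and 0.279 (intMo 2 with pMo 1), so the values set library 0 apart more than they separate 1 and 2. Same-numbered pairs with cMo lay at -0.143 to 0.230 and were not taken as pairs. The main tests did not use the pairing of pMo and intMo, which entered only the alternatives with a replicate block. In the blocked fit of pMo and intMo alone, Mcl1 and Bid were called as well (edgeR adjusted p = 0.0209 and 0.0227).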

Additional observations from a re-analysis of the deposited data

How the results depend on the processing

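Of 490 values of single members under alternative settings, 470 kept direction and side of the threshold, 9 became called, 3 lost their call and 8 changed sign, all 8 in comparisons that were not called. The count of members called ranged from 4 to 6 for intMo against cMo and for pMo against intMo, and from 6 to 7 for pMo against cMo and for any subset. The replicate block over all libraries left the member counts at 4, 4 and 7 and that for any subset at 6, without Bcl2l11. Depth limits Bcl2a1 in cMo and Bcl2l14 and Bcl2l15 throughout. The cause was not tested for the changes that follow.

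With libraries 1 and 2 alone the log2 change of intMo against cMo was 0.0464 for Bcl2l1, -0.0668 for Bcl2l2 and -0.0485 for Bbc3, and that of pMo against intMo was 0.0464 for Bcl2l15. Leaving out 1 library at a time, intMo against cMo ran from -0.20 to 0.00821 for Bcl2l1, -0.15 to 0.24 for Bak1, -0.15 to 0.12 for Bcl2l2 and -0.0673 to 0.18 for Bbc3. Likewise pMo against intMo ran from -0.0199 to 0.54 for Bcl2l11 and -0.0301 to 0.25 for Bcl2l2, and pMo against cMo from -0.0450 to 0.17 for Bcl2l1 and -0.0940 to 0.41 for Bcl2l14.

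Counts of called genes in the lists moved too. For intMo against cMo the Mcl-1 turnover count was 1 with the 1 CPM filter, DESeq2, the replicate block, or libraries 1 and 2 alone, in place of 0. The death receptor count was 2 with DESeq2 or libraries 1 and 2 alone, in place of 1. The caspase pathway count, 2 as reported, was 4 with libraries 1 and 2 alone, 1 with only these subsets, and 1 to 3 leaving out 1 library. For pMo against intMo it was 1 with the 1 CPM filter and 1 to 2 leaving out 1 library. For pMo against intMo the death receptor count was 4 with libraries 1 and 2 alone, 5 in the blocked fit of these subsets, and 1 to 2 leaving out 1 library. The regulator count was 9, 11, and 3 to 7 under those settings. The count of other family genes was 0 to 3 leaving out 1 library. For pMo against cMo the caspase pathway count was 5 to 10 leaving out 1 library.

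With the mean coding transcript length the Mcl1 share was 41.4% in pMo and 70.1% in intMo, and the Bcl2a1 share 56.9% in pMo, 27.8% in intMo and 1.56% in cMo. With the longest transcript the Mcl1 share in cMo was 92.5%.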
